A study of Mus musculus with 6 samples.

Results

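Genes of homologous recombination, the Fanconi anaemia pathway and R-loop control were followed in mouse embryonic stem cells depleted of a subunit of THO. The list held 39 genes, named by function. A gene was measured by the probe that carries its name or an older synonym, and where several did, by the brightest one on average over the arrays. Of the 39 listed genes 36 had a probe, and all 36 were tested, among 19371 genes tested in all. Fancf, Atr and Mdc1 were not analysed here. Every one of the 36 probes was well above background on all 6 arrays, so no member passed or failed a filter on dim probes because of one group.

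A double-strand break is found by the MRN complex, which calls in the kinase Atm, while single-stranded DNA at stalled forks calls in the kinase Atr. In S and G2 phase the broken end is cut back, Brca1, Brca2 and their partners act on the single strand, and the lost sequence is copied from the sister chromatid. Fanconi proteins recognise crosslinked strands at forks and pass them to the same repair. An R-loop is a hybrid of new RNA with its DNA template that leaves the other strand free. RNase H cuts its RNA, and topoisomerase 1 keeps it from forming. THO packs new mRNA into particles, and cells that lack it are known to gather R-loops and broken forks.

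The arrays were single-colour (Cy3) Agilent expression arrays of total RNA from the mouse embryonic stem cell line J1. All cells had been moved to M10 medium for transfection and were harvested 96 hours later. The groups were Thoc5 siRNA, Thoc2 siRNA and a non-targeting siRNA (NT), with 2 arrays each. Nothing in the labels says that the replicates were separate cultures, so the errors and p-values below measure the spread between these arrays, which may be technical. A level is the log2 of a spot's processed signal over the 75th percentile of its array, so a level of 0 is a signal at that percentile. A difference is siRNA group minus NT on that log2 scale, with the standard error (SE) of a limma fit to all 6 arrays.

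The siRNA targets served as the check of the labels. Thoc5 had levels of 0.34 and 0.00 on the Thoc5 siRNA arrays, against 1.31 and 1.57 on the NT arrays, which left 41.4% of the NT level. Thoc2 had levels of 0.70 and 0.33 on the Thoc2 siRNA arrays, against 1.33 and 1.43 with NT, which left 55.0%. The unadjusted p was 0.0073 and 0.0324 (limma), and neither passed after adjustment. The signal at the 75th percentile was 306 to 738 with Thoc5 siRNA, 716 to 733 with Thoc2 siRNA and 817 to 905 with NT, with replicate 1 of Thoc5 siRNA the dimmest array. Replicate 1 of Thoc2 siRNA carried 880 outlier spots, against 63 to 155 on the others. All 8 embryonic stem cell markers listed were well above background on every array. Their summed signal over the 75th percentile was 788 to 995 with Thoc5 siRNA, 816 to 850 with Thoc2 siRNA and 989 to 1050 with NT. The sum of 9 fibroblast and feeder markers was 1.28 to 1.57, 1.53 to 1.98 and 2.29 to 2.84 in the same groups, and 6 of the 9 were well above background on every array. All 8 stem cell markers had differences below 0 under each siRNA, beside 56.8% of all genes with Thoc5 siRNA and 44.2% with Thoc2 siRNA. Pou5f1 was at -0.88 ± 0.22 with Thoc5 siRNA (unadjusted p = 0.0128, limma). Dppa5a had the highest level of the 8 on every array (8.98 to 9.40), so it weighed most in their sum. It was at -0.07 ± 0.19 with Thoc5 siRNA and -0.29 ± 0.19 with Thoc2 siRNA. Of the 9 fibroblast markers 3 were lower (beside 12% of all genes) and 1 higher (beside 7.39%) at an unadjusted p under 0.05 with Thoc5 siRNA. With Thoc2 siRNA 2 were lower (beside 6.46%) and 2 higher (beside 8.06%). Thy1 was at -2.01 ± 0.39 with Thoc5 siRNA. It had the highest NT levels of the 9 (0.64 and 0.03), so it weighed most in the sum of the NT arrays. Fbn1 went the other way, at 0.78 ± 0.19 with Thoc5 siRNA and 0.90 ± 0.19 with Thoc2 siRNA. Col3a1, well above background on 3 arrays, was at 2.03 ± 0.53 with Thoc2 siRNA. The part of these 2 marker lists in the results below was not tested. In bulk RNA, fewer cells of a type and less RNA per cell cannot be told apart.

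With Thoc5 siRNA the members leaned low and Bard1 stood high. No member passed the limma test adjusted by Benjamini-Hochberg over all genes, and neither did any other gene (0% of 19371). The smallest adjusted p was 0.101 over all genes and 0.107 among the members, for Brca2. At an unadjusted p under 0.05, 6 of 36 members were lower: Brca1, Brca2, Palb2, Rad50, H2afx and Aqr. These were 16.7% of the members, beside 12% of all genes that were lower by the same rule. Bard1 alone was higher, 2.78% of the members beside 7.39% of all genes. In both directions together the 7 members made up 19.4%, and the share over all genes was also 19.4%, so the count of members past that threshold was at the background. Counted instead by whether the 2 Thoc5 siRNA arrays lay apart from both NT arrays, 20 of 36 members were lower (55.6%, beside 31% of all genes) and 6 were higher (16.7%, beside 21.7%). The median difference was -0.173 for the members and -0.0852 for all genes, with 24 members below 0 (66.7%, beside 56.8% of all genes) and 12 above (33.3%, beside 43.2%). The count of 7 was 4 without NT replicate 2, 3 without replicate 1 of Thoc5 siRNA and 1 without its replicate 2. It was 2 after normexp background correction (Brca2 and H2afx), where the share over all genes was 5.09%. It was 3 with each array centred on its median (Brca2, Bard1 and Rad50), where that share was 11.7%. The lean changed with 1 array: without replicate 2 of Thoc5 siRNA the members' median lay 0.0386 above that of all genes, and without replicate 1 it lay below by a difference of -0.231.

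With Thoc2 siRNA 1 member passed an unadjusted p under 0.05, Rad50, which was lower. That is 2.78% of the members, beside 14.5% of all genes in either direction and 6.46% that were lower. No member was higher, beside 8.06% of all genes. No member and no other gene (0%) passed after adjustment, with a smallest adjusted p of 0.207 over all genes and 0.236 among the members. Both Thoc2 siRNA arrays lay below both NT arrays for 12 members (33.3%, beside 20.5% of all genes) and above them for 6 (16.7%, beside 25.7%). The median difference was 0.00528 for the members and 0.0632 for all genes, and 18 members (50%) lay on each side of 0, beside 44.2% of all genes below and 55.8% above. That split depends on the scaling: with each array centred on its median instead, all genes shifted by -0.303 and 33 of 36 members lay below 0. The 2 siRNA groups share their NT arrays, so a low or high NT array moves both differences the same way.

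**Figure D1:**
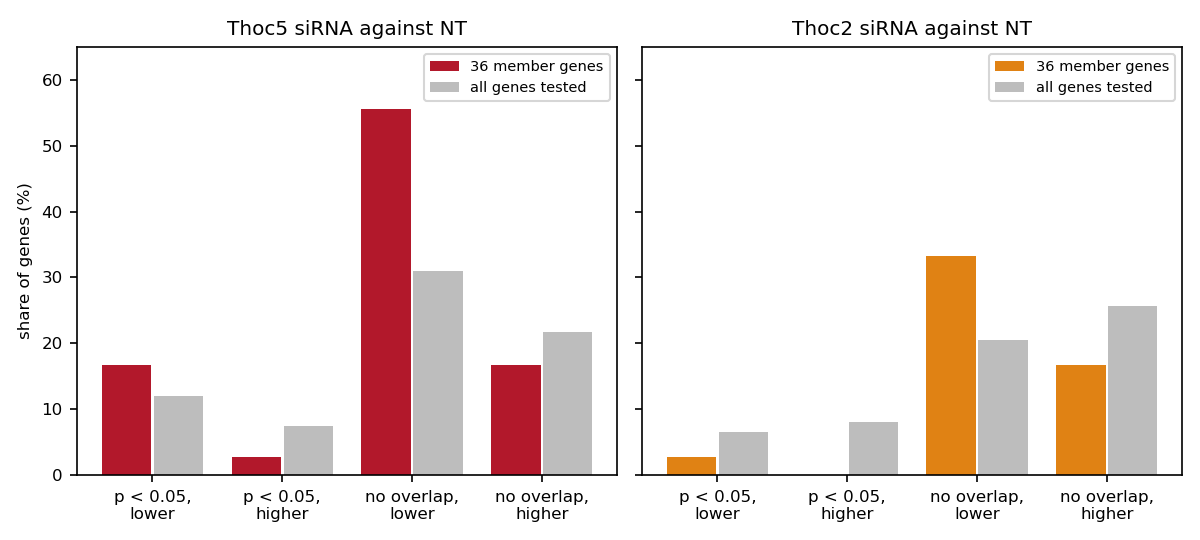
Share of genes, in percent, that were lower or higher than NT at an unadjusted p under 0.05, or with both siRNA arrays below or above both NT arrays, for Thoc5 siRNA (left) and Thoc2 siRNA (right). Coloured bars are the 36 members and grey bars all genes tested: the Thoc5 siRNA members without overlap were lower in 55.6% and all genes in 31%.

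**Figure D2:**
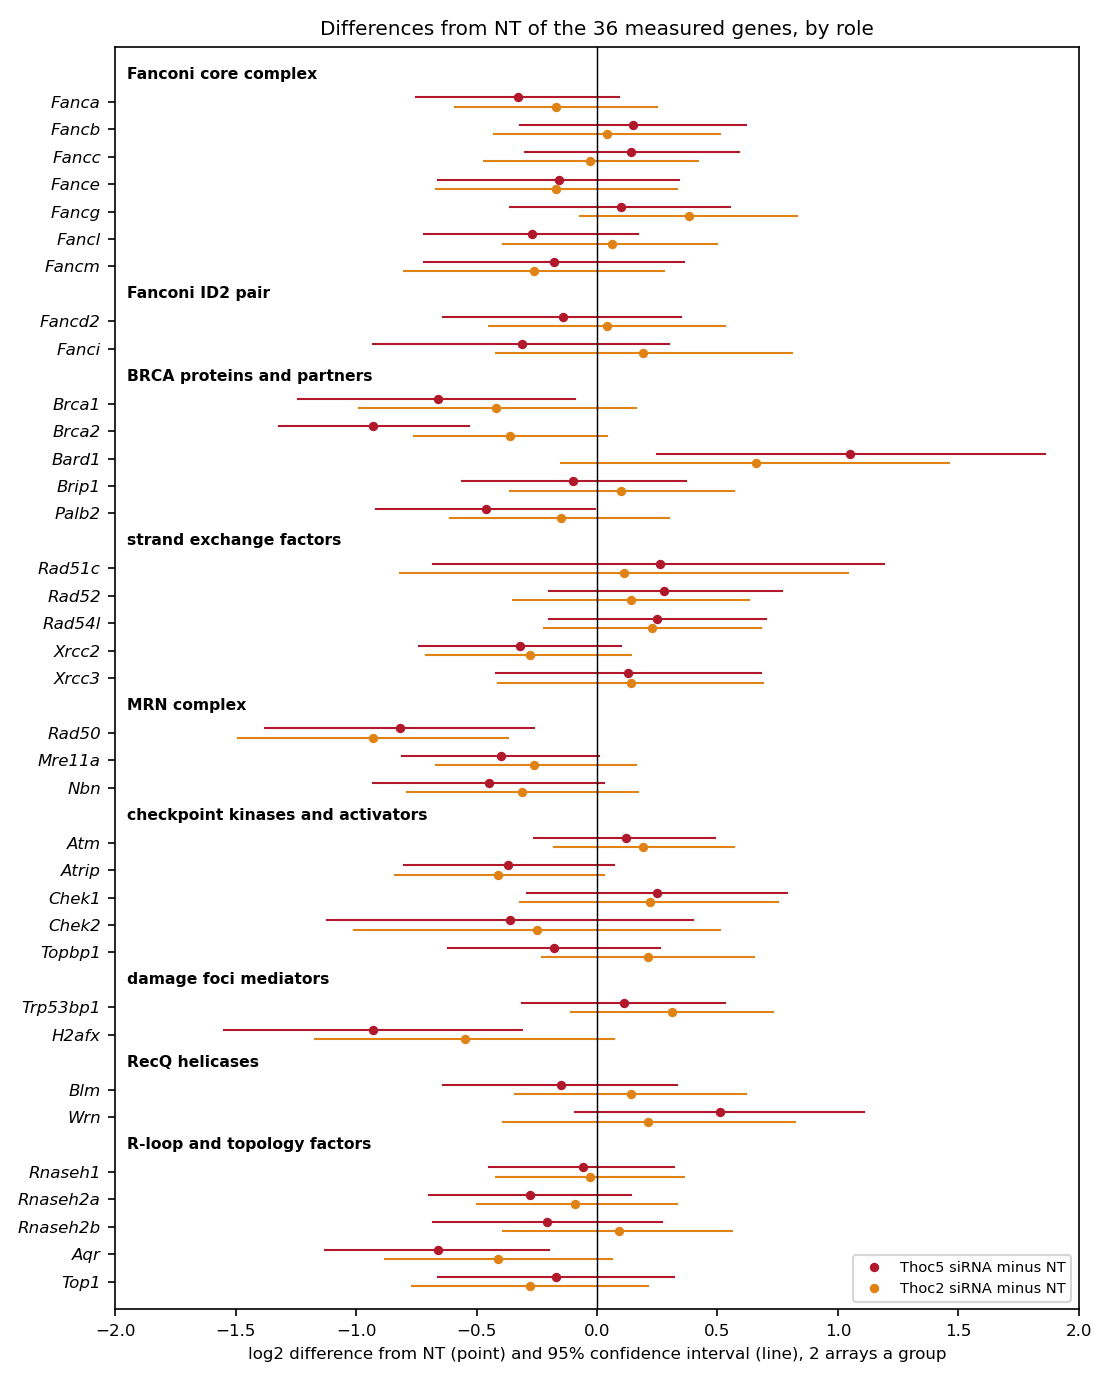
Log2 difference from NT (points) with its 95% confidence interval (lines) for each of the 36 members, grouped by role, with Thoc5 siRNA in red above Thoc2 siRNA in orange. Thoc5 siRNA intervals that miss 0 belong to Brca1, Brca2, Bard1, Palb2, Rad50, H2afx and Aqr, and the Thoc2 siRNA interval that misses 0 belongs to Rad50.

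By the probes used, every measured member of the MRN complex (3 of 3) lay below NT without overlap under both siRNAs. Of all genes 31% did so with Thoc5 siRNA and 20.5% with Thoc2 siRNA. The 3 members lay below 0 under each of 5 other scalings and background corrections too. Rad50, the coiled-coil ATPase that tethers broken ends, had levels of -0.74 and -0.74 with Thoc5 siRNA, -0.74 and -0.95 with Thoc2 siRNA, against 0.31 and -0.14 with NT. All 4 siRNA arrays lay below both NT arrays, by at least the gap between the NT arrays. Its difference was -0.82 ± 0.21 with Thoc5 siRNA (unadjusted p = 0.0142, adjusted p = 0.158) and -0.93 ± 0.21 with Thoc2 siRNA (unadjusted p = 0.009, adjusted p = 0.236, limma). The probe lies at chr11:53608997-53609056 in mouse build mm7, which is the build of every probe position given here; the files do not name the exon. Within the slide shared with an NT array the difference was -0.60 with Thoc5 siRNA and -1.26 with Thoc2 siRNA. Without either one of the Thoc5 siRNA arrays the Thoc5 difference stayed at -0.82 and its unadjusted p was 0.0618 and 0.0616. After normexp background correction both differences missed the threshold (-0.52 and -0.65). Mre11a, the nuclease of the complex, was at -0.40 with Thoc5 siRNA, and Nbn, the subunit that recruits Atm, at -0.45. Further, dimmer probes well above background on all 6 arrays gave -0.15 and -0.44 for Mre11a and -0.07 for Nbn. On that Nbn probe the Thoc5 siRNA arrays (-0.52 and -0.26) overlapped NT (-0.27 and -0.38). With Thoc2 siRNA the 3 members ran between -0.93 and -0.26.

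Among the checkpoint kinases and their activators 5 of 6 listed genes were measured, and none passed an unadjusted p under 0.05 with either siRNA. The Thoc5 differences ran between -0.37 and 0.25, and the Thoc2 differences between -0.41 and 0.22. Atrip, the partner that brings Atr to single-stranded DNA, was at -0.37 with Thoc5 siRNA. Chek2, the kinase that acts after Atm, was at -0.36, and Chek1, the kinase that acts after Atr, at 0.25. Atm itself was at 0.12, and its second, dimmer probe at 0.99. Topbp1, the activator of Atr, was at -0.18 with Thoc5 siRNA, and its arrays are given in the closing section.

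Of the proteins that mark and shape the chromatin around a break, H2afx and Trp53bp1 were measured. H2afx encodes the histone variant H2AX, whose phosphorylated form marks chromatin next to breaks; the array reads its mRNA and not that mark. H2afx had levels of 6.88 and 6.48 with Thoc5 siRNA, 6.97 and 7.16 with Thoc2 siRNA, against 7.42 and 7.80 with NT. Every siRNA array lay below both NT arrays, and the Thoc5 siRNA arrays also lay below those with Thoc2 siRNA. The difference was -0.93 ± 0.23 with Thoc5 siRNA (unadjusted p = 0.0129, adjusted p = 0.153), or 52.4% of the NT level, and -0.55 ± 0.23 with Thoc2 siRNA (unadjusted p = 0.0711). Within the shared slide it was -1.32 with Thoc5 siRNA and -0.27 with Thoc2 siRNA. Its call was lost without NT replicate 2 (-0.75), without replicate 2 of Thoc5 siRNA (-0.73) and with each array centred on its median (-0.85). The probe, the only one for the gene, lies at chr9:44270295-44270354. Trp53bp1, which holds back the resection of ends and so favours end joining, was at 0.11 with Thoc5 siRNA.

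**Figure D3:**
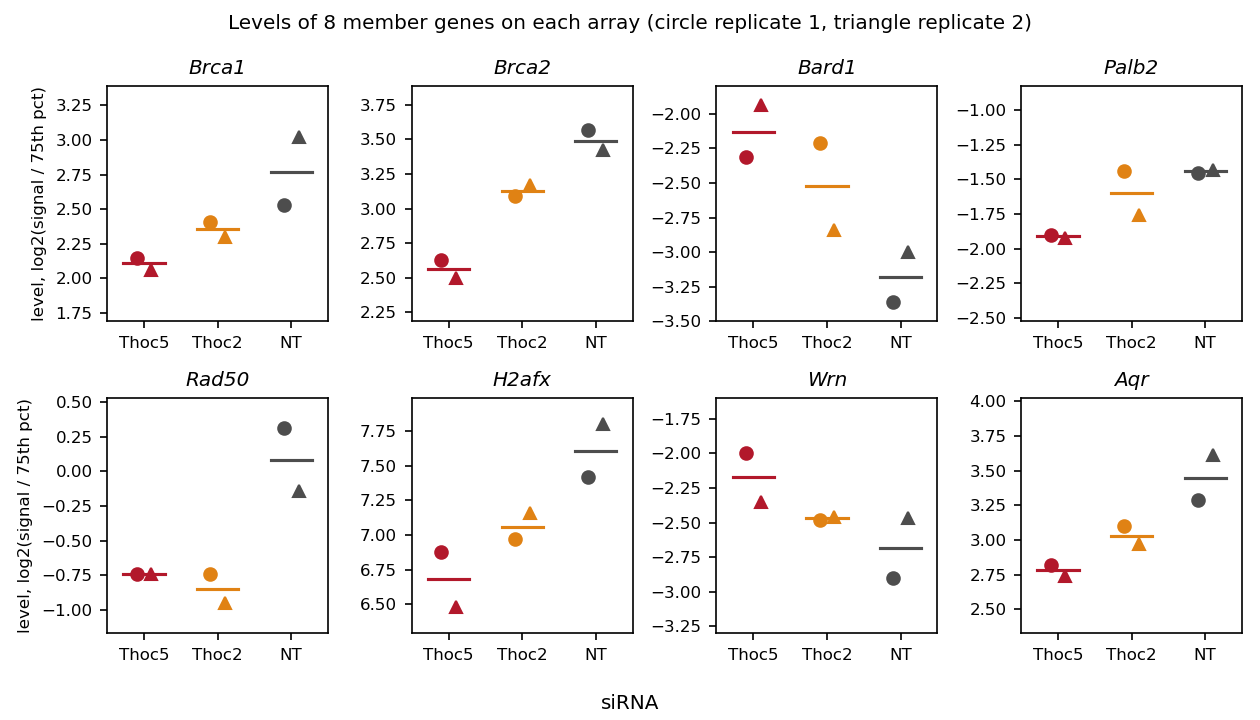
Levels of 8 members on each array, as log2 of the signal over the array's 75th percentile, with Thoc5 siRNA, Thoc2 siRNA and NT from left to right; circles are replicate 1, triangles replicate 2 and bars the group mean. For Brca2 the Thoc5 siRNA arrays (2.63 and 2.50) lie below the Thoc2 siRNA arrays (3.09 and 3.17) and these below NT (3.57 and 3.42), while Bard1 runs the other way; the panels have axes of equal span but different position.

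The Fanconi core complex, the ubiquitin ligase that answers to a crosslink, had 7 of 8 listed genes measured and none past an unadjusted p under 0.05. With Thoc5 siRNA the differences of the probes used ran between -0.33 and 0.15, with 4 below 0 and 3 above. Fanca, a core subunit, was at -0.33 and Fancl, the catalytic subunit, at -0.27. Fancm, the translocase that anchors the complex to DNA, was at -0.18, and Fance, which binds Fancd2, at -0.16. Fancb, Fancc and Fancg lay at 0.15, 0.14 and 0.10. Further, dimmer probes well above background on all 6 arrays reached outside that range, at -0.69 for Fancm and 0.35 and 0.46 for Fancg. A further Fancl probe gave -0.13. With Thoc2 siRNA the range was -0.26 to 0.38. Both subunits of the clamp that the core complex ubiquitinates lay below NT on both Thoc5 siRNA arrays, beside 31% of all genes. Fancd2 was at -0.14 and Fanci at -0.31, and neither passed. With Thoc2 siRNA both lay above 0, at most by 0.19, beside 55.8% of all genes. That side depends on the processing: both lay below 0 after normexp background correction and with each array centred on its median.

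The BRCA proteins and their partners, 5 measured genes, held 4 of the 7 members past an unadjusted p under 0.05 with Thoc5 siRNA. Of the 5, 3 were lower (beside 12% of all genes) and 1 was higher (beside 7.39%). Brca2, which acts at resected ends, had levels of 2.63 and 2.50 with Thoc5 siRNA, 3.09 and 3.17 with Thoc2 siRNA, against 3.57 and 3.42 with NT. The 3 groups did not overlap and lay in that order from low to high. The difference from NT was -0.93 ± 0.15 with Thoc5 siRNA (95% confidence interval -1.32 to -0.53, unadjusted p = 0.00228, adjusted p = 0.107, limma), or 52.6% of the NT level. With Thoc2 siRNA it was -0.36 ± 0.15 (unadjusted p = 0.0655). Brca2 was past an unadjusted p under 0.05 with Thoc5 siRNA in all 18 other settings that give a test. Its adjusted p was 0.0452 with a stricter filter on dim probes and 0.0257 with an intensity trend and robust variances. The second Brca2 probe, a dimmer one, gave -0.32 with Thoc5 siRNA and -0.15 with Thoc2 siRNA. The mean of both probes was at -0.62 with Thoc5 siRNA, and the within-slide difference of the probe used was -0.92. That probe lies at chr5:149502735-149502794.

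Brca1 and Bard1 form a single ubiquitin ligase, and they lay on opposite sides of NT. Brca1 had levels of 2.15 and 2.06 with Thoc5 siRNA, 2.41 and 2.30 with Thoc2 siRNA, against 2.53 and 3.02 with NT. The siRNA arrays lay below both NT arrays, and the NT arrays lay farther apart than either siRNA pair. The difference was -0.66 ± 0.21 with Thoc5 siRNA (unadjusted p = 0.0316, adjusted p = 0.213) and -0.42 ± 0.21 with Thoc2 siRNA (unadjusted p = 0.118). Bard1 had levels of -2.31 and -1.94 with Thoc5 siRNA, -2.21 and -2.84 with Thoc2 siRNA, against -3.36 and -3.0 with NT. All 4 siRNA arrays lay above both NT arrays, and the Thoc2 siRNA arrays lay farther apart than either other pair. The difference was 1.05 ± 0.30 with Thoc5 siRNA (unadjusted p = 0.0208, adjusted p = 0.181), or 208% of the NT level, and 0.66 ± 0.30 with Thoc2 siRNA (unadjusted p = 0.0875). Bard1 has 1 probe, at chr1:71289484-71289543, and no second probe to set beside it. Its NT levels were the lowest of any member on those arrays, so the size of its difference rests on dim signals. That probe was still well above background on all 6 arrays. The Brca1 probe lies at chr11:101598134-101598193, and a second, dimmer one gave -0.43 with Thoc5 siRNA.

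Both Thoc5 calls depended on the setting and on single arrays. Brca1 missed the threshold after normexp (-0.89), with median scaling (-0.58) and with a replicate block (-0.66), without NT replicate 2 (-0.42) and without replicate 1 (-0.71) or 2 (-0.62) of Thoc5 siRNA. It also missed it without either Thoc2 siRNA array, where the difference stayed at -0.66 and fewer arrays set the spread. Bard1 missed it after normexp (1.18), without NT replicate 1 (0.87) and without replicate 2 of Thoc5 siRNA (0.87). Within the shared slide the Thoc5 difference was -0.95 for Brca1 and 1.06 for Bard1.

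Palb2, the bridge between Brca1 and Brca2, had levels of -1.90 and -1.92 with Thoc5 siRNA, -1.44 and -1.76 with Thoc2 siRNA, against -1.45 and -1.43 with NT. The Thoc5 siRNA arrays were the lowest of the 6, and the Thoc2 siRNA pair overlapped NT. The difference was -0.46 ± 0.17 with Thoc5 siRNA (unadjusted p = 0.0456, adjusted p = 0.247) and -0.15 ± 0.17 with Thoc2 siRNA (unadjusted p = 0.408). Palb2 kept an unadjusted p under 0.05 in 6 of 18 other settings; the difference was -0.09 after normexp, and leaving out either NT array or either Thoc5 siRNA array gave -0.48 to -0.45 without a call. Its second probe gave -0.60 with Thoc5 siRNA, and the within-slide difference was -0.49. The probe used is placed at chr7:118037580-118038581. Brip1, the helicase that binds Brca1, was at -0.10.

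The stretches before the start sites of Brca1, Brca2 and Bard1 are shown because these partners differed in direction. The RefSeq table of build GRCm38.p6 had a promoter for 31 of the 39 listed genes, and the 250 bases before the start site were searched on both strands. Capitals mark matches to E2F (TTTGGCGC, TTTCCCGC, TTTCGCGC or TTTGCCGC) and to the CCAAT box (CCAAT); the lines give chr11:101551956-101552205 (minus strand), chr5:150522371-150522620 (plus strand) and chr1:71102973-71103222 (minus strand), each 5′ to 3′ on the strand of its gene.
Brca1: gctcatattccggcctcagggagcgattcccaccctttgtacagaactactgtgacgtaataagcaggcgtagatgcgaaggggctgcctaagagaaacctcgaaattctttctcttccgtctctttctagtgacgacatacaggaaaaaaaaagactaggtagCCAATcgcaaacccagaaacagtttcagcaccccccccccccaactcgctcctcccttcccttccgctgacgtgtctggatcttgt
Brca2: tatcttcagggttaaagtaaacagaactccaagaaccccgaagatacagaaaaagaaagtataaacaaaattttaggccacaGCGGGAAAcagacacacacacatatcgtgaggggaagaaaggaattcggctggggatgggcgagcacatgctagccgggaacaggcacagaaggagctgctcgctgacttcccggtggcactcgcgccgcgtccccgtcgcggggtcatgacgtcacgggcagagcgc
Bard1: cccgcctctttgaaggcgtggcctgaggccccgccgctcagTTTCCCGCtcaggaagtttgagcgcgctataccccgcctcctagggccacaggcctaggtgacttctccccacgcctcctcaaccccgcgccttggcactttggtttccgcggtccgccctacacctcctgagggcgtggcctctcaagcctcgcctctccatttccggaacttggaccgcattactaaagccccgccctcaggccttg

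E2F is the factor family that drives genes of the G1 to S transition, and one of its words stood in Brca2, from base -168 to -161 before the start, and in Bard1, from -209 to -202. The Brca1 stretch held a CCAAT box from -86 to -82 and no E2F word. Over the list, 6 of 31 promoters held one (19.4%, beside 2.16% of all 27025 genes in the table): Bard1, Brca2, Chek2, Fancg, Mdc1 and Topbp1. A CCAAT box stood in 18 of 31 (58.1%, beside 37.5%). Of 3 other motifs searched the same way, ETS (CCGGAAG) was in 19.4% of the members' promoters beside 7.83% of all, and CRE (TGACGTCA) in 6.45% beside 1.77%. CHR (TTTGAA) was in 6.45% beside 18.3%. None of these motifs contains another, and a match describes letters only.

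By the probes used, 4 of 5 strand exchange factors lay above NT with each siRNA. Of all genes 43.2% did so with Thoc5 siRNA and 55.8% with Thoc2 siRNA. None of the 5 passed an unadjusted p under 0.05. With each array centred on its median all 5 lay below 0 with Thoc2 siRNA, and 1 with Thoc5 siRNA as before. With Thoc5 siRNA Rad52, which anneals single strands, was at 0.28 and Rad54l, a translocase that acts on the template duplex, at 0.25. Rad51c, Xrcc3 and Xrcc2, related proteins that help strand exchange, were at 0.26, 0.13 and -0.32. Further, dimmer probes well above background on all 6 arrays gave -0.02 and 0.11 for Xrcc2 and 0.51 for Rad52. With Thoc2 siRNA the 5 genes ran between -0.28 and 0.23. Rad51c had the widest error of the 36 members (SE 0.35).

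Both RecQ helicases unwind joint molecules and damaged forks. Wrn, the helicase lost in Werner syndrome, had levels of -2.0 and -2.35 with Thoc5 siRNA, -2.48 and -2.46 with Thoc2 siRNA, against -2.90 and -2.47 with NT. The Thoc5 siRNA arrays lay above both NT arrays, replicate 2 by little, and the Thoc2 siRNA arrays lay next to NT replicate 2. The difference was 0.51 ± 0.23 with Thoc5 siRNA (unadjusted p = 0.0805) and 0.21 ± 0.23 with Thoc2 siRNA (unadjusted p = 0.393), and 0.12 within the slide of Thoc5 siRNA. The probe lies at chr8:32003856-32003915. A second probe well above background on all 6 arrays gave 0.64 with Thoc5 siRNA. It lies at chr8:32003847-32003906 and so overlaps the first, and reads mostly the same bases. Blm, which dissolves double Holliday junctions, was at -0.15.

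By the probes used, all 5 R-loop and topology factors lay below NT with Thoc5 siRNA (4 of 5 with median scaling), beside 56.8% of all genes. Of them 3 lay below without overlap, beside 31%. Aqr is the one that passed an unadjusted p under 0.05. Aqr encodes Aquarius, a helicase of the spliceosome whose loss in human cells is known to raise R-loops. Its levels were 2.82 and 2.74 with Thoc5 siRNA, 3.1 and 2.97 with Thoc2 siRNA, against 3.29 and 3.61 with NT. The 3 groups did not overlap, and the siRNA arrays lay below both NT arrays. The difference was -0.66 ± 0.18 with Thoc5 siRNA (unadjusted p = 0.0158, adjusted p = 0.162), or 63.2% of the NT level, and -0.41 ± 0.18 with Thoc2 siRNA (unadjusted p = 0.0718). The call was lost after normexp (-0.82), with median scaling (-0.58) and with the mean of all 3 probes (-0.43), without NT replicate 2 (-0.50) and without replicate 1 (-0.70) or 2 (-0.62) of Thoc5 siRNA. Within the shared slide the difference was -0.86. The probe lies at chr2:113842156-113842215, and further Aqr probes gave -0.47 and -0.14.

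The enzymes that remove the RNA of a hybrid differed less from NT. Rnaseh1, which cuts long hybrids, was at -0.06 with Thoc5 siRNA. Rnaseh2a, the catalytic subunit of RNase H2, was at -0.28 and Rnaseh2b, an auxiliary subunit, at -0.21. Top1, the topoisomerase that relaxes supercoils behind RNA polymerase, was at -0.17. Its second, dimmer probe lay on the other side, at 0.36, and was well above background on all 6 arrays. None passed, and with Thoc2 siRNA the 5 factors ran between -0.41 and 0.09. For a member of median precision the 95% confidence interval reached 0.47 to either side, so a difference of -0.28 could not be told from 0.

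The siRNAs were also compared directly, Thoc5 minus Thoc2, in a contrast that uses no NT mean. No gene passed after adjustment (0%, smallest adjusted p 0.403), and 1 member passed an unadjusted p under 0.05 (2.78%, beside 9.17% of all genes). Lower alone were 6.99% of all genes and higher alone 2.18%. The member was Brca2, lower with Thoc5 siRNA by a difference of -0.57 ± 0.15 (unadjusted p = 0.0153, adjusted p = 0.484, limma). Both Thoc5 siRNA arrays lay below both Thoc2 siRNA arrays for 18 members (50%, beside 32.1% of all genes) and above them for 2 (5.56%, beside 13%). The median difference was -0.121 for the members and -0.127 for all genes. The direction depends on the scaling: 23 of 36 members lay below 0 as reported, 3 with each array centred on its median and 17 with the mean of all probes. Bard1 had the highest difference, 0.40 ± 0.30 (95% confidence interval -0.41 to 1.2). Rad50 was at 0.11 ± 0.21 (-0.45 to 0.67), and H2afx at -0.38 ± 0.23 (-1.0 to 0.24). The Brca2 difference missed the threshold in 5 of 18 other settings: without replicate 2 of Thoc5 siRNA (-0.50), without replicate 2 of Thoc2 siRNA (-0.53), after normexp (-0.46), with the mean of both its probes (-0.37) and with each array centred on its median (-0.18).

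The mean of both siRNA groups against NT, a contrast of the same fit and not independent of the first ones, gave 0% after adjustment and 7 members past an unadjusted p under 0.05 (19.4%, beside 19.1% of all genes). Brca1, Brca2, Rad50, H2afx, Aqr and Atrip were lower (16.7%, beside 10.3% of all genes) and Bard1 was higher (2.78%, beside 8.81%). With any 1 array left out the count was 3 to 5, the lowest without replicate 2 of NT or of Thoc5 siRNA, and it was 4 with a replicate block, 3 with median scaling and 2 after normexp.

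Other genes of these pathways were counted in lists beside the members, and none passed after adjustment in any comparison. Their counts at an unadjusted p under 0.05 stand beside 12% of all genes lower and 7.39% higher with Thoc5 siRNA, and 6.46% lower and 8.06% higher with Thoc2 siRNA. Of 21 other homologous recombination genes 1 was lower with Thoc5 siRNA at an unadjusted p under 0.05 and 0 with Thoc2 siRNA, and the medians were -0.06 and 0.03. The gene was Rad54b, a relative of Rad54l, at -0.59 ± 0.19 (unadjusted p = 0.0326), followed by Shfm1 at -0.37 ± 0.19 (unadjusted p = 0.115). With Thoc2 siRNA the smallest p-values belonged to Rpa1, a subunit of the single-strand binding protein RPA, at -0.56 ± 0.22, and Rbbp8, which starts end resection, at 0.49 ± 0.23. Of 10 other crosslink repair genes 2 were lower with Thoc5 siRNA and 0 with Thoc2 siRNA (medians -0.05 and 0.06). They were Ube2t, the ubiquitin-conjugating enzyme of the core complex, at -0.51 ± 0.16 (unadjusted p = 0.0273), and Mad2l2, a partner of the translesion polymerases, at -0.60 ± 0.21 (unadjusted p = 0.0396). With Thoc2 siRNA Mad2l2 (-0.54 ± 0.21) and the nuclease Fan1 (1.49 ± 0.62) came nearest to the threshold. The Fan1 probe was well above background on only 4 of 6 arrays. Its NT levels were -6.78 and -5.37, so the size of that difference rests on dim signals. Of 14 other damage signalling genes 1 was lower with Thoc5 siRNA and 0 with Thoc2 siRNA (medians -0.13 and 0.01): Rnf168, a ubiquitin ligase at breaks, at -0.64 ± 0.21 (unadjusted p = 0.0319), ahead of Hus1, a part of the checkpoint clamp, at -0.47 ± 0.19 (unadjusted p = 0.0662). With Thoc2 siRNA Timeless (0.40 ± 0.20) and Clspn (-0.43 ± 0.22) came nearest.

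Of 11 other R-loop genes 9 lay above 0 with Thoc5 siRNA (beside 43.2% of all genes), with a median of 0.12. With Thoc2 siRNA 7 did (beside 55.8%), with a median of 0.15. Centring each array on its median shifted all genes by -0.303 with Thoc2 siRNA, which is larger than that median. How these genes differ from the factors among the members was not tested. Ddx21, a nucleolar helicase that unwinds hybrids, was lower under both siRNAs, at -0.79 ± 0.14 with Thoc5 siRNA (unadjusted p = 0.00372) and -0.51 ± 0.14 with Thoc2 siRNA (unadjusted p = 0.0197). Ercc5, an endonuclease of nucleotide excision repair, was higher with Thoc5 siRNA at 0.66 ± 0.23 (unadjusted p = 0.042). Of 10 end joining genes 3 were lower with Thoc5 siRNA (beside 12% of all genes) and 1 was higher (beside 7.39%), with a median of -0.28. The lower ones were Dclre1c (-1.03 ± 0.31), Parp1 (-0.50 ± 0.15) and Lig4 (-0.58 ± 0.19). Lig3, the ligase of the alternative end joining route, was higher at 0.57 ± 0.17 under each siRNA (unadjusted p = 0.0233 each), and Nhej1 was higher with Thoc2 siRNA at 0.39 ± 0.14. Between the siRNAs, 1 gene of these 5 lists passed an unadjusted p under 0.05: Senp3, at 0.48 ± 0.17 in Thoc5 minus Thoc2.

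Because many of the members are made mainly in S and G2 phase, a list of 25 S phase and G2 to M genes was set beside them. With Thoc5 siRNA 20 of 25 lay below 0, beside 56.8% of all genes. Their median was -0.18, beside -0.0852 for all genes. At an unadjusted p under 0.05, 4 were lower (beside 12% of all genes): Mcm4 (-0.56 ± 0.19), Ccna2 (-0.47 ± 0.16), Mki67 (-0.52 ± 0.18) and Ccne1 (-0.44 ± 0.15). With Thoc2 siRNA 19 of 25 lay below 0, beside 44.2% of all genes. Their median was -0.17, beside 0.0632 for all genes. Ccna2, cyclin A2, was lower at -0.64 ± 0.16 (unadjusted p = 0.0123, limma). The part of these genes in the members' differences was not tested.

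**Figure D4:**
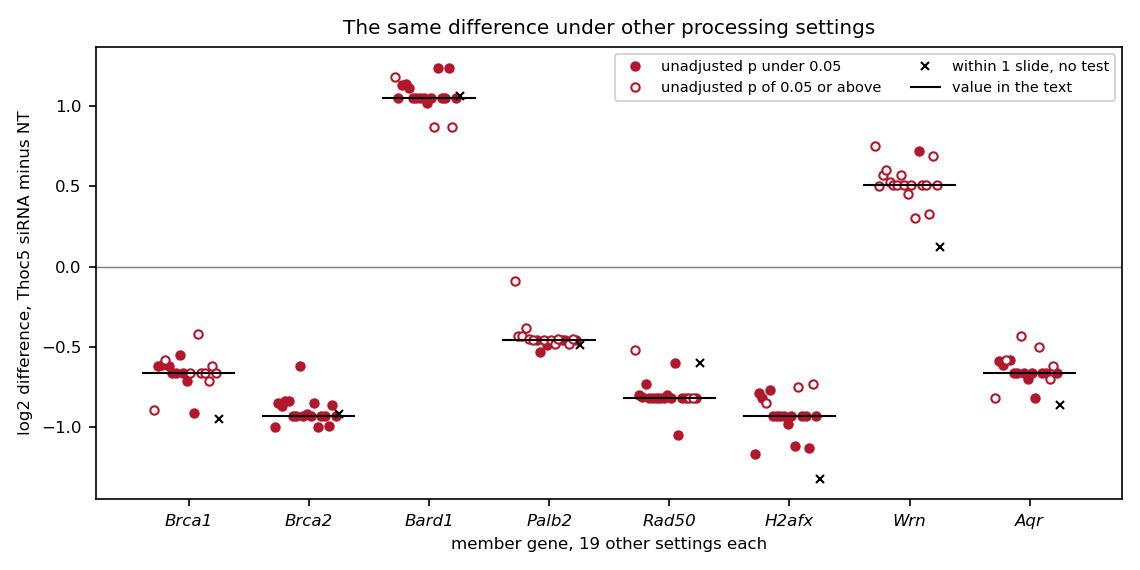
Log2 difference between Thoc5 siRNA and NT of 8 members under 19 other processing settings (points) and as given in the text (bars). Filled points have an unadjusted p under 0.05, open points do not, and crosses are the value within 1 slide, which has no test: Brca2 is filled in all 18 tested settings, Palb2 in 6, and every point keeps its side of 0.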

How the data were processed

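Per the labels, 6 arrays were hybridised with Cy3-labelled total RNA. Per the file headers the deposited processed signal is a spot's intensity after background subtraction, from Feature Extraction 9.5.3.1; the submitters' processing notes name version 11.0. The deposited series table holds log2 values that rank as that signal does (Spearman correlation 1 on each array, a common median of 5.95); no source used here says how it was made. Levels were log2 processed intensity minus the array's 75th percentile, without control spots or outlier flags. Probes had to be well above background on both arrays of some group. Of 41174 probes 22951 were named by accession, 124 by another accession, 6582 by current symbol and 3077 by synonym, and 8440 kept the file's name; names came from GRCm38.p6 tables, positions from mm7.

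Tests used limma 3.58.1 in R 4.3.3 (with the data.table package, 1.17.8), two-sided, with 1 spread per gene over 6 arrays and Benjamini-Hochberg adjustment over all genes; an exact permutation test of 2 against 2 arrays cannot go below 0.333. Values on every array are given for members past an unadjusted p of 0.05, or highest or lowest, in a comparison of a single siRNA with NT or of the siRNAs with each other, or at least 0.5 from NT without overlap; the mean of both siRNAs is no part of this rule. Members and lists were chosen with earlier results of these data known. Alternatives were other background corrections, scalings, filters, probe rules, variance models, blocks and left-out arrays. In 5 simulated draws of 19027 genes, 200 genes were changed, in the Thoc5 arrays only. There an unadjusted p under 0.05 (limma) found 78.0% of log2 changes of 1 and 4.78% of unchanged genes. The adjusted p found 0.25%, 30.0% and 83.0% of changes of 1, 2 and 6, those of 6 being upward only. The simulated arrays were independent, with no shared slide, and the adjusted shares depend on how many genes change. These shares therefore do not give the power in the real arrays.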

Additional observations from a re-analysis of the deposited data

Results flagged for a closer look

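Brca2 differed between the siRNAs themselves. Its Thoc5 siRNA arrays were at 2.63 and 2.50 and its Thoc2 siRNA arrays at 3.09 and 3.17, a difference of -0.57 ± 0.15 on the log2 scale (unadjusted p = 0.0153, limma). The adjusted p over all genes was 0.484, so the difference did not pass, and the unadjusted call was lost in 5 of 18 other settings, the mean of both Brca2 probes among them (-0.37).

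As scaled here, Topbp1 lay on opposite sides of NT under the 2 siRNAs. Its levels were 2.28 and 2.01 with Thoc5 siRNA, 2.47 and 2.61 with Thoc2 siRNA, against 2.34 and 2.31 with NT. The Thoc5 minus Thoc2 difference was -0.39 ± 0.17 (unadjusted p = 0.0688, adjusted p = 0.573), and neither siRNA differed from NT at an unadjusted p under 0.05. Topbp1 was 1 of 36 members with this pattern (2.78%), beside 438 genes in all (2.3%). The pattern depends on the scaling. With each array centred on its median all 5 measured checkpoint genes, Topbp1 among them, lay below 0 with Thoc2 siRNA.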

How the results depend on the processing

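Of the 8 members given array by array, none past an unadjusted p under 0.05 changed sign in any setting that kept its comparison. With Thoc5 siRNA, genes past the adjusted threshold numbered 509 with a stricter filter on dim probes and 660 with an intensity trend and robust variances, 1 of them a member each time (Brca2). For the mean of both siRNAs these were 438 and 637 genes, with Brca2 again in the second. With Thoc2 siRNA the trend gave 4 genes and no member.

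Members past an unadjusted p under 0.05 with Thoc5 siRNA, 7 as reported (beside 19.4% of all genes), were 2 after normexp (beside 5.09%) and 3 with median scaling (beside 11.7%). With Thoc2 siRNA (1 as reported, beside 14.5%) they were 0 after normexp (beside 4.32%). They were 2 with median scaling (beside 12.6%), the stricter filter (beside 18.6%) or the mean of all probes (beside 13.9%). With the trend they were 6 (beside 16.5%), and with slide as a random block 3 (beside 17.5%). Between the siRNAs (1) they were 0 after normexp or median scaling and 4 with the trend. For the mean (7) they were 2 after normexp, 3 with median scaling and 4 with the replicate block.

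The members' median minus that of all genes was -0.0881 with Thoc5 siRNA, -0.0579 with Thoc2 siRNA and -0.0513 for the mean. It was -0.462, -0.408 and -0.412 after normexp, -0.226, -0.16 and -0.182 with no filter, and -0.253, -0.16 and -0.162 within the shared slides. Between the siRNAs it was 0.00592, and 0.15 with the mean of all probes and -0.0819 with quantile normalization or the deposited table. The cause was not tested. Normexp shifted all genes by 0.332 with Thoc5 siRNA and 0.231 with Thoc2 siRNA, and median scaling shifted Thoc5 minus Thoc2 by 0.391, quantile normalization by 0.111.

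Leaving out each array in turn, a lone array being assumed to vary like the others, gave 0 genes past the adjusted threshold in every comparison. Members past the unadjusted threshold numbered 1 to 6 with Thoc5 siRNA (1 without its replicate 2, 3 without its replicate 1, 4 without NT replicate 2), 1 to 3 with Thoc2 siRNA (3 without NT replicate 1, 2 without its replicate 2), 0 to 1 between the siRNAs (0 without replicate 2 of either) and 3 to 5 for the mean. The median minus that of all genes ran from -0.231 to 0.0386, -0.161 to -0.029, -0.0735 to 0.0589 and -0.148 to -0.00102.

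No label pairs the replicates, which share only a number. With the replicate block 5 members were past the unadjusted threshold with Thoc5 siRNA, 1 with Thoc2 siRNA and 1 between them. Deviations of replicate 1 from the group means correlated at 0.143 (Thoc5 and NT), -0.2 (Thoc2 and NT) and 0.218 (Thoc5 and Thoc2). Replicates 2 of Thoc5 siRNA and NT shared a slide, as did Thoc2 siRNA replicate 2 and NT replicate 1; the fitted correlation of residuals within a slide was 0.287.

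Of 24 further member probes well above background on every array 22 lay on the same side of NT as the probe used with Thoc5 siRNA and 19 with Thoc2 siRNA. With 2 arrays a group, changes under about 0.47 on the log2 scale were mostly within a member's confidence interval.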
